A study of Oryza sativa Indica Group with 24 samples.

Results

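The 200 genes described here were the least variable of the expressed genes of developing indica rice grains. They were chosen by their measured FPKM in all 24 libraries, as the 200 with the lowest standard deviation (SD) of log2(FPKM + 0.5). Of 26362 genes in the expression table, 15212 were above 0 in all 24 libraries, 8628 of those averaged at least 10 FPKM, and 8206 of those also had every group mean under 500 FPKM. The 8206 genes were ranked, and the 200 at the low end are called the members. The ranking used every library, so the members' small differences below are a description of what was chosen and carry no test. FPKM relates the sequenced fragments of a gene to the length of its transcript and to the scale of its library.

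Grains of RD57, a high-amylose cultivar, and of RD6, a waxy (glutinous) cultivar, were compared 7, 14, 21 or 28 days after flowering (days post anthesis, DPA). Each of the 8 groups had 3 biological replicates, which gave 24 libraries: 12 of RD57 and 12 of RD6. RD6 carries the mutant waxy (Wx) allele of GBSSI, the starch synthase that makes amylose. No transgene or treatment is named for any group. All plants were grown in pots in a net house, and RNA came from grains of the upper primary branches of tagged main-stem panicles. The labels give the tissue as endosperm while the study's methods describe whole grains, and the identifiers carry no gene names, so the tissue was not checked here against marker genes.

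Genes whose transcripts keep a steady level are often ones that every living cell needs, such as those for protein synthesis, protein turnover and membrane traffic, and such genes serve as internal references in quantitative PCR. In a cereal grain, transcripts of starch synthesis and storage proteins come to dominate the endosperm during filling, and during maturation the starchy endosperm dies and the grain dries. A steady FPKM value is a steady level on the scale set for each library, not a steady number of molecules in a cell. In bulk samples of this kind fewer cells of a type and less RNA per cell cannot be told apart.

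Sums of FPKM over all genes ran from 595147 (RD6 at 28 DPA, replicate 2) to 1748780 (RD57 at 14 DPA, replicate 3), and the 100 most abundant genes took 32.8% to 62.6% of the sum of a library. Between 17548 and 21371 genes were above 0 in a library, and log2 values of replicates of a group correlated at r = 0.970 to 0.991 over 24 pairs. The table holds no reads, and the numbers of mapped read pairs that the study lists were not used here, so no counting interval is given. Among the libraries, RD57 at 28 DPA, replicate 3, had the fewest members within 25% of their own mean, 167 of 200, against 178 to 198 in the other libraries. It was the lowest library for 23 members and the highest for 18, while RD6 at 14 DPA, replicate 1, was the highest for 21. Leaving it out kept 175 of the 200 members on the list, and leaving out RD6 at 28 DPA, replicate 1, kept 174.

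The members are known by identifiers of the study's own transcript assembly, and 0 of 26362 identifiers matched the reference gene table. Therefore, no gene name, function, position or sequence is given for any of them.

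The members varied little by construction. Their SD ran from 0.119 to 0.221, with a median of 0.20, against a median of 0.615 and a highest value of 3.12 over the 8206 ranked genes (members included). The highest library of a member was 1.35 to 2.14 times its lowest (median 1.71), and in 189 of 200 members this ratio was under 2. Over the ranked genes the median ratio was 4.41 and 452 of 8206 (5.51%) were under 2. Just inside the limit, XLOC_004151 at rank 200 had an SD of 0.2212. Just outside it, XLOC_015804, the next in rank, had 0.2214, so the list ends on a smooth slope and not at a gap. The limit of 500 FPKM removed 422 genes, and 0 of them had an SD below that of rank 200.

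**Figure D1:**
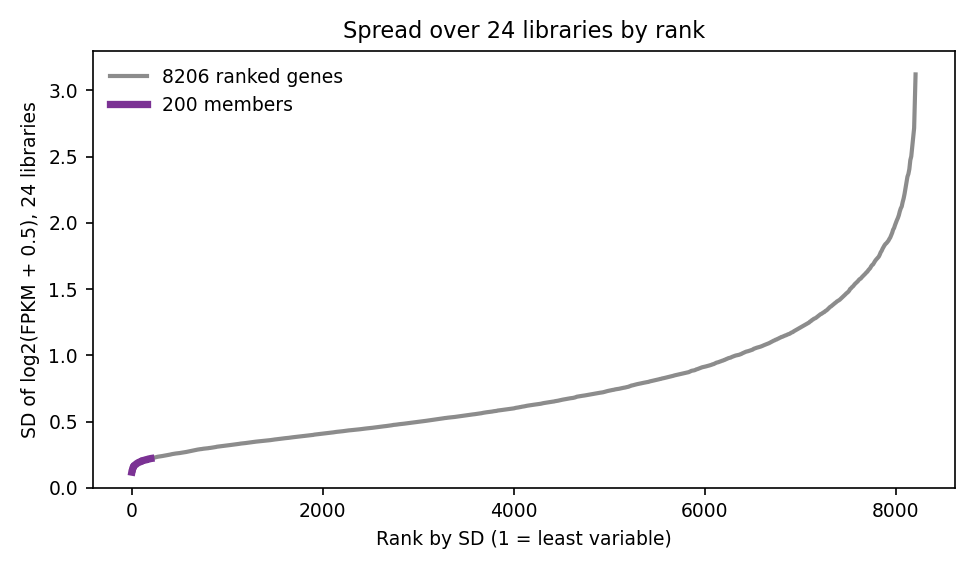
SD of log2(FPKM + 0.5) over the 24 libraries (vertical axis) against rank (horizontal axis, 1 is the least variable) for 8206 ranked genes, with the 200 members in purple. The members lie at the foot of a continuous curve, between 0.119 and 0.221, and the curve ends at 3.12.

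The 3 genes with the lowest SD were an abundant one and 2 of moderate level. XLOC_004638, the least variable gene, averaged 123 FPKM with an SD of 0.119. It had 107, 126 and 119 FPKM (7 DPA), 124, 146 and 132 (14 DPA), 128, 129.8 and 121 (21 DPA), and 122, 122.5 and 108 (28 DPA) in the 3 RD57 replicates. The RD6 replicates of XLOC_004638 had 129, 112 and 111 FPKM (7 DPA), 139, 131 and 131 (14 DPA), 137, 121 and 111 (21 DPA), and 123, 120.2 and 111 (28 DPA). RD57 and RD6 overlapped at every DPA. The highest group means of XLOC_004638 were 134 ± 11.0 FPKM in RD57 and 134 ± 4.66 FPKM in RD6, both at 14 DPA (SD, n = 3 each). Its largest library was 1.37 times its smallest.

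XLOC_033236, second in rank, averaged 35.7 FPKM with an SD of 0.123. In RD57 it had 28.0, 38.1 and 35.4 FPKM (7 DPA), 35.8, 33.7 and 34.9 (14 DPA), 35.2, 40.6 and 36.01 (21 DPA), and 38.2, 39.4 and 35.4 (28 DPA). In RD6, XLOC_033236 had 37.4, 33.3 and 36.6 FPKM (7 DPA), 30.3, 30.5 and 34.1 (14 DPA), 36.4, 38.0 and 37.4 (21 DPA), and 38.6, 35.2 and 37.0 (28 DPA). Its lowest library was replicate 1 of RD57 at 7 DPA, and its lowest group mean was that of RD6 at 14 DPA (31.7 ± 2.12 FPKM, SD, n = 3). XLOC_011646, the third, averaged 24.4 FPKM with an SD of 0.129. Its RD57 values were 31.8, 26.8 and 24.9 FPKM (7 DPA), 23.7, 24.02 and 23.2 (14 DPA), 24.3, 23.5 and 23.7 (21 DPA), and 22.3, 26.9 and 23.9 (28 DPA). RD6 values of XLOC_011646 were 22.4, 24.6 and 26.2 FPKM (7 DPA), 25.9, 20.5 and 22.3 (14 DPA), 25.7, 26.4 and 21.8 (21 DPA), and 21.9, 24.2 and 24.6 (28 DPA). Of the sum of squares of XLOC_011646, 63.5% lay between replicates of a group.

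The gene at the end of the list was less flat. XLOC_004151 had 53.0, 60.9 and 62.9 FPKM (7 DPA), 68.0, 80.3 and 79.7 (14 DPA), 81.7, 92.3 and 73.4 (21 DPA), and 92.0, 85.3 and 92.8 (28 DPA) in RD57. In RD6 the values of XLOC_004151 were 71.8, 66.0 and 62.5 FPKM (7 DPA), 77.1, 74.8 and 68.1 (14 DPA), 81.2, 74.96 and 62.1 (21 DPA), and 98.8, 76.3 and 77.8 (28 DPA). All 3 RD57 replicates at 28 DPA lay above all 3 at 7 DPA. The RD6 replicates at 28 DPA also lay above those at 7 DPA.

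**Figure D2:**
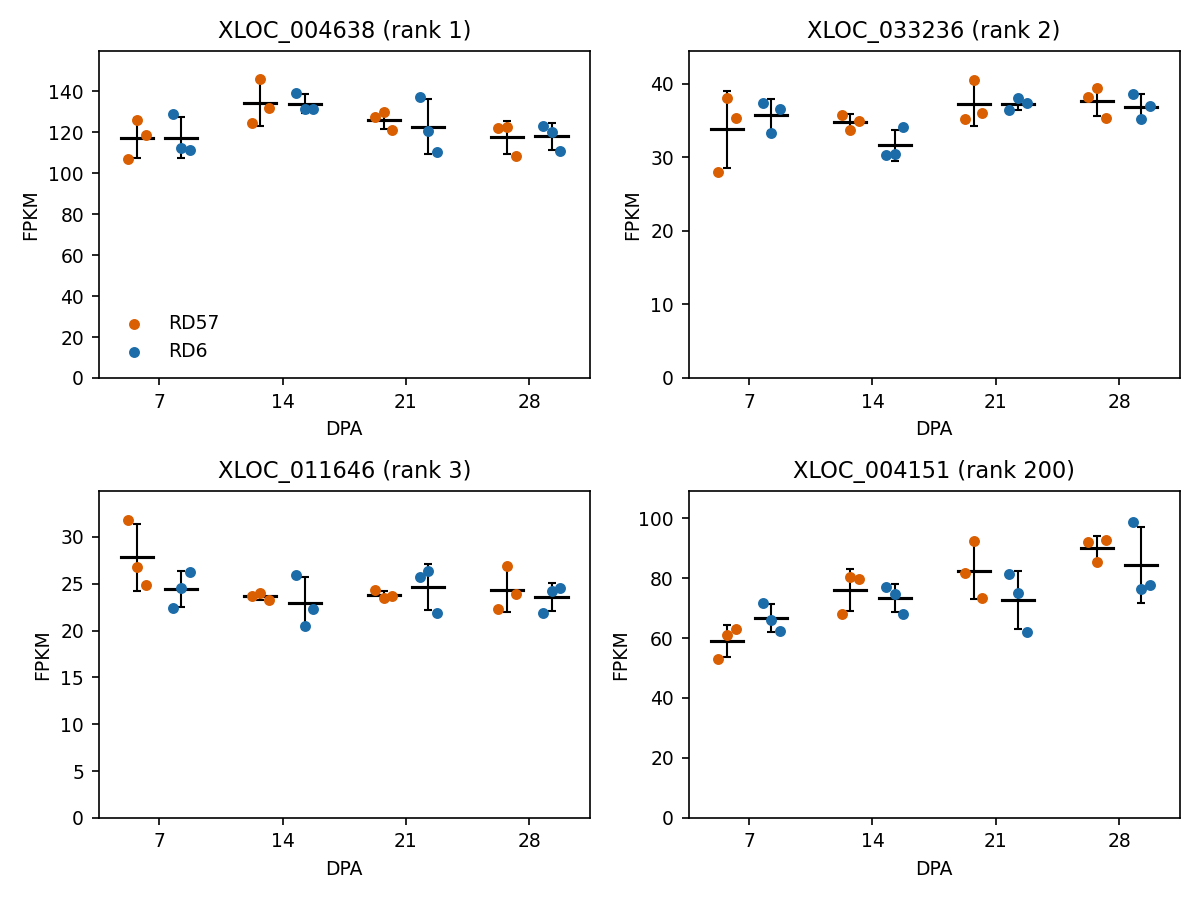
FPKM (vertical axes, from 0) by DPA (horizontal axes) for the members of rank 1, 2, 3 and 200, with a point per library (RD57 orange, left; RD6 blue, right), a black bar at each mean of 3 and an error bar of 1 SD. XLOC_004638, XLOC_033236 and XLOC_011646 overlap between cultivars at every age, while XLOC_004151 is higher at 28 than at 7 DPA in both cultivars.

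Members were found at low and at high levels, though not in the upper part of the ranked range. Their mean level ran from 10.2 to 269 FPKM with a median of 24.7 FPKM, while the ranked genes reached 362 FPKM with a median of 24.9 FPKM. Of the members, 74 averaged 10 to under 20 FPKM, 96 averaged 20 to under 50, 21 averaged 50 to under 100, and 9 averaged at least 100. These were 2.31%, 3.14%, 1.74% and 1.20% of the ranked genes of each class. The most abundant member, XLOC_027639, averaged 269 FPKM. Its RD57 libraries had 263, 254 and 250.5 FPKM (7 DPA), 270.4, 256 and 294 (14 DPA), 285, 266 and 259 (21 DPA), and 289, 205 and 301 (28 DPA). RD6 libraries had 345, 297 and 324 FPKM of XLOC_027639 (7 DPA), 347, 319 and 237 (14 DPA), 224, 238 and 240.5 (21 DPA), and 264, 219 and 202 (28 DPA). Every RD57 library of XLOC_027639 was below every RD6 library at 7 DPA and above every RD6 library at 21 DPA, and at 14 and 28 DPA the cultivars overlapped. In the limma fit described below, no cultivar difference of XLOC_027639 was called at any single age.

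The least abundant member, XLOC_014784, averaged 10.2 FPKM and was flat in RD57 but not in RD6. In RD57 it had 10.1, 10.5 and 9.96 FPKM (7 DPA), 10.6, 10.04 and 10.8 (14 DPA), 9.49, 10.5 and 11.4 (21 DPA), and 9.90, 10.3 and 10.5 (28 DPA). RD6 had 7.90, 9.48 and 9.59 FPKM of XLOC_014784 (7 DPA), 11.8, 13.6 and 13.02 (14 DPA), 8.12, 8.11 and 10.1 (21 DPA), and 9.28, 9.47 and 10.3 (28 DPA). The 3 RD57 replicates were all above the RD6 replicates at 7 DPA, all below them at 14 DPA, and overlapped with them at 21 and 28 DPA. In the limma fit described below, no cultivar difference of XLOC_014784 was called at any single age.

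The sum of squares of each gene's 24 log2 values was split into parts for DPA, cultivar, their interaction and the spread between replicates of a group. Replicates held the largest part in 127 of 200 members, DPA in 59, cultivar in 8 and the interaction in 6. Shares were not adjusted for the number of independent comparisons behind each part, and replicates have the most. A gene with replicate spread alone would also have its largest share there. These shares therefore do not set replicate spread above change with age. Over the ranked genes DPA led in 7068 of 8206 and replicates in 688. The median share between replicates was 45.8% for the members and 12.01% for the ranked genes, and the median share of DPA was 27.9% for the members and 76.9% for the ranked genes. The interaction held a median of 13.2% in members against 4.19% in ranked genes, and cultivar 4.52% against 2.01%. The shares of a gene add up to its whole, so beside the lower DPA share these are not read as traits of the members. The median replicate SD was 0.154 log2 for the members against 0.249 over the ranked genes. The choice favours this, because the SD used for the ranking includes the spread between replicates. In 82 members (41%) more than 50% of the sum of squares lay between replicates, against 347 (4.23%) of the ranked genes.

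**Figure D3:**
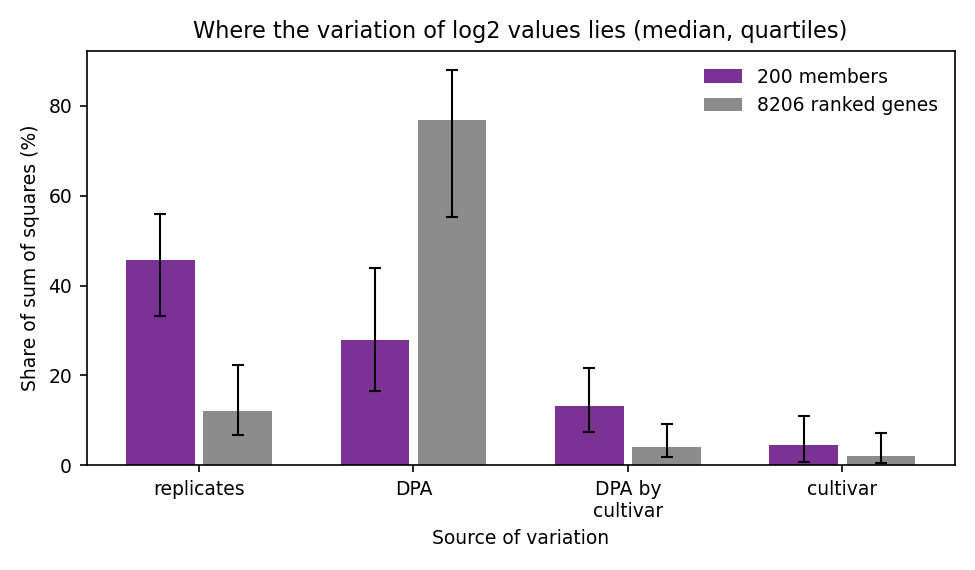
Share of the sum of squares of log2(FPKM + 0.5) in percent (vertical axis) for replicates, DPA, DPA by cultivar and cultivar (horizontal axis), with bars at the median, error bars at the quartiles, members in purple and the 8206 ranked genes in grey. The replicate bar is the tallest for members (45.8%) and the DPA bar the tallest for ranked genes (76.9%). Shares are not adjusted for the number of independent comparisons behind each part.

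XLOC_031107 and XLOC_038787 were the extremes of this split. XLOC_031107 had both the largest replicate share, 87.3%, and the smallest range of group means, 0.18 log2, with an SD of 0.207 (rank 127 of 200). Its RD57 values were 29.2, 23.6 and 18.6 FPKM (7 DPA) and 19.0, 25.9 and 18.2 (28 DPA), and its RD6 values were 17.6, 23.3 and 22.8 FPKM (7 DPA) and 15.8, 20.2 and 28.4 (28 DPA). At those ages replicates of 1 group differed more than the group means did. XLOC_038787 had the smallest replicate share, 12.7%, and 68.0% of its sum of squares lay between DPA. Its RD57 values were 46.5, 43.6 and 42.1 FPKM (7 DPA), 51.7, 55.0 and 53.2 (14 DPA), 42.2, 40.7 and 40.1 (21 DPA), and 43.5, 48.4 and 48.3 (28 DPA). The RD6 libraries had 43.5, 44.7 and 44.7 FPKM of XLOC_038787 (7 DPA), 58.0, 46.1 and 48.2 (14 DPA), 33.9, 37.0 and 34.1 (21 DPA), and 37.5, 39.0 and 41.7 (28 DPA). In both cultivars XLOC_038787 was highest at 14 DPA and lowest at 21 DPA, with no overlap between those ages.

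As a body, the members kept their FPKM level, for which they were chosen, while the sums of the libraries changed. The ranked genes as a body were nearly as level. By library, the median log2 deviation of genes from their own means was -0.11 to 0.09 for members and -0.13 to 0.15 for ranked genes. The geometric mean of the members ran from 24.6 FPKM (RD6 at 21 DPA, replicate 3) to 28.2 FPKM (RD6 at 14 DPA, replicate 1), a ratio of 1.15. Group means of that value were 26.1, 26.4, 26.6 and 27.3 FPKM at 7, 14, 21 and 28 DPA in RD57, and 26.1, 27.2, 25.4 and 26.3 FPKM in RD6. The sum of FPKM over all genes differed 2.94-fold between libraries, so the members' share of that sum moved with it. The share averaged 0.605%, 0.400%, 0.739% and 0.969% at the 4 ages in RD57, and 0.765%, 0.571%, 0.755% and 1.07% in RD6. It was smallest at 14 DPA, where the sums were largest, and largest at 28 DPA, in both cultivars.

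**Figure D4:**
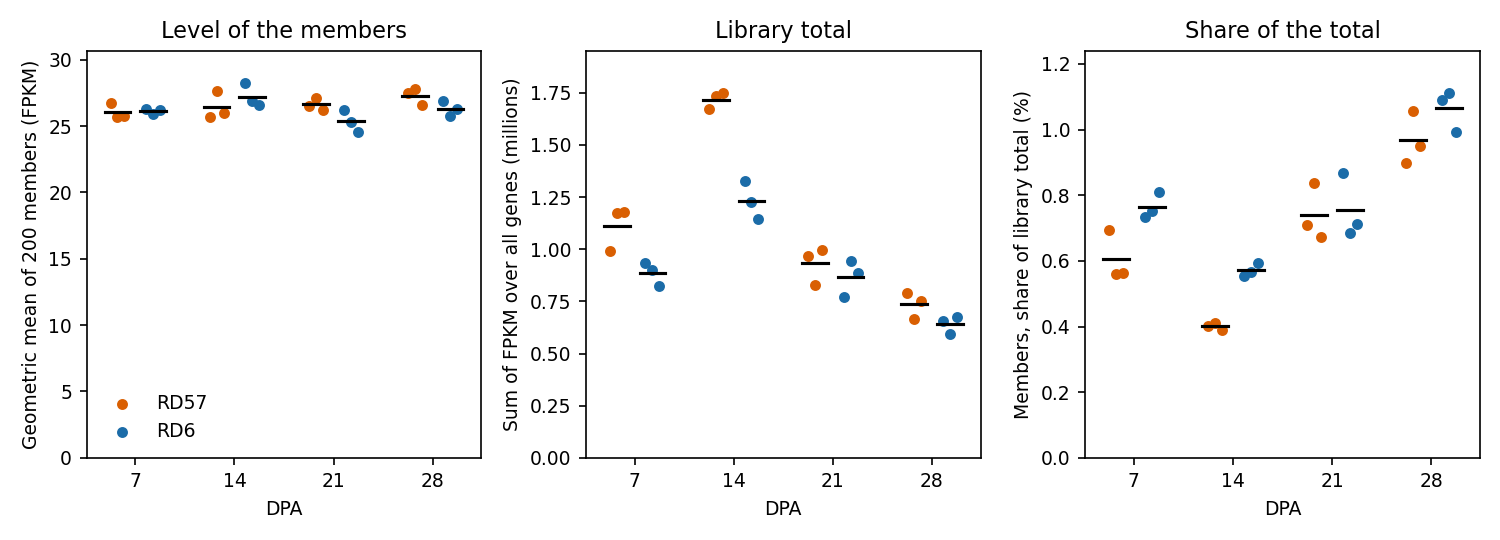
Geometric mean of the 200 members in FPKM (left), sum of FPKM over all genes in units of 1000000 (middle) and members' share of that sum in percent (right) by DPA (horizontal axes), with a point per library (RD57 orange, RD6 blue) and a bar at each mean of 3. The left panel is nearly level (24.6 to 28.2 FPKM), while the sum has its peak and the share its low point (0.400% in RD57 and 0.571% in RD6) at 14 DPA.

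Which genes counted as steady therefore depended on the scale of the libraries. With every library scaled to a common sum of 1000000, the members' SD was 0.284 to 0.608 with a median of 0.466, all 200 still below the median of 0.731 over the genes then ranked, and 1 of 200 stayed among the 200 lowest. The members' median level by group on that scale was then 22.8, 14.4, 27.2 and 34.8 in RD57 and 28.3, 20.4, 27.2 and 37.4 in RD6 at 7, 14, 21 and 28 DPA. Conversely, the 200 genes with the lowest SD on the common-sum scale lay, in FPKM, at a median of 0.14, 0.61, -0.18 and -0.27 log2 from their own means in RD57, and of -0.01, 0.43, -0.26 and -0.48 in RD6. Scaling to the common sum moved the median log2 value of genes above 0 by -0.76 to 0.72 between libraries. Scaling by each library's median ratio to the genes' geometric means moved it by -0.05 to 0.02 and kept 190 of 200 members, so the deposited FPKM already stood close to that scale. Which scale is nearer to the amount of RNA in a grain was not tested.

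Between the cultivars the members differed little at any age. The median RD57 minus RD6 difference was -0.004, -0.04, 0.08 and 0.07 log2 at 7, 14, 21 and 28 DPA, against medians of 0.00, 0.02, 0.05 and 0.07 over the ranked genes. Single members ranged from -0.59 to 0.42 at 7 DPA, -0.47 to 0.46 at 14 DPA, -0.36 to 0.55 at 21 DPA and -0.43 to 0.44 at 28 DPA. The RD57 mean was the higher in 98, 76, 132 and 129 of 200 members at the 4 ages (49%, 38%, 66% and 64.5%). Over the ranked genes it was the higher in 50.1%, 52.0%, 55.5% and 58.2%. The RD57 mean was the higher at every age in 23 members (11.5%, ranked genes 16.3%). The RD6 mean was the higher at every age in 17 (8.5%, ranked genes 11.5%). With libraries scaled to the common sum the members' median differences became -0.32, -0.51, -0.02 and -0.12 log2.

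**Figure D5:**
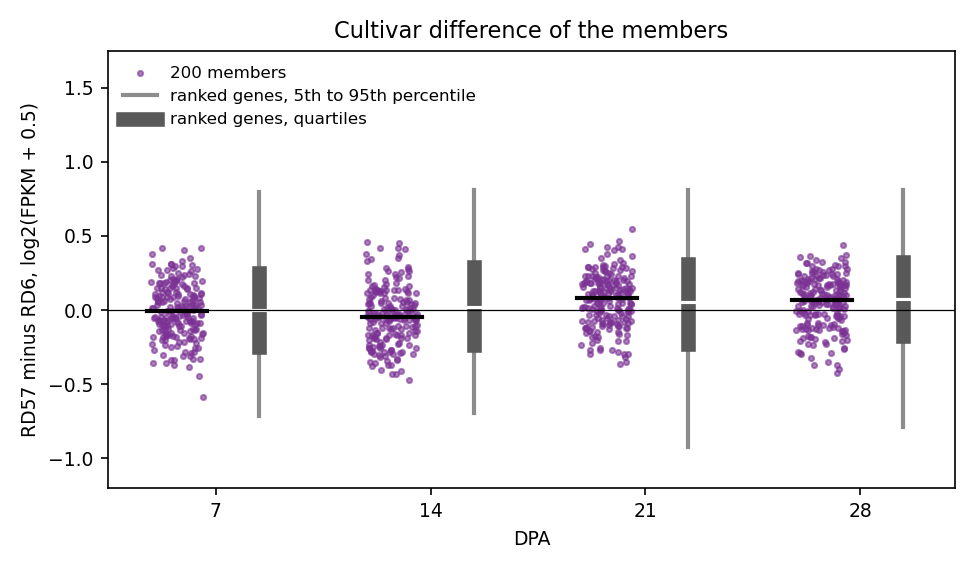
RD57 minus RD6 difference of group means of log2(FPKM + 0.5) (vertical axis) at each DPA (horizontal axis) for the 200 members (purple dots, black line at the median), beside the 5th to 95th percentile and quartiles of the ranked genes in grey. The members' medians are -0.004, -0.04, 0.08 and 0.07, and the members lie between -0.59 and 0.55.

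A fit of all 26362 genes with limma, which estimates a mean per cultivar and age and calls a gene at a Benjamini-Hochberg adjusted p of at most 0.05, gave the following numbers of calls. At 7 DPA 8 members were called, 5 higher and 3 lower in RD57, where 27.7% of all genes (13.8% higher, 13.8% lower) and 16.1% of ranked genes were called. At 14 DPA there were 17, 7 higher and 10 lower, against 28.2% of all genes (15.1% higher, 13% lower) and 16.8% of ranked genes. At 21 DPA there were 15, 13 higher and 2 lower, against 29.1% of all genes (13.6% higher, 15.5% lower) and 19.2% of ranked genes. At 28 DPA there were 7, 3 higher and 4 lower, against 15.1% of all genes (11% higher, 4.09% lower) and 14% of ranked genes. Over the mean of the 4 ages 32 members were called, 19 higher and 13 lower in RD57, against 48.1% of all genes (25.7% higher, 22.5% lower) and 33.6% of ranked genes. None of these members differed by 1 log2 or more. Members were chosen for small differences over these very libraries, so nothing is read from counts below the background. The direction of the calls depended on the scale and on the genes tested: quantile normalization gave 7 higher and 24 lower over the mean of the 4 ages, and scaling to the common sum gave 0 higher and 136 lower. At single ages quantile normalization gave 2 higher and 8 lower at 7 DPA, 4 higher and 17 lower at 14 DPA, 10 higher and 3 lower at 21 DPA, and 0 higher and 13 lower at 28 DPA. Scaling to the common sum gave 0 higher and 60 lower at 7 DPA, 0 higher and 138 lower at 14 DPA, 1 higher and 3 lower at 21 DPA, and 0 higher and 6 lower at 28 DPA. Median ratio scaling gave 7 higher and 2 lower at 7 DPA, 7 higher and 9 lower at 14 DPA, 8 higher and 3 lower at 21 DPA, and 1 higher and 5 lower at 28 DPA. With only the 15212 genes above 0 in all 24 libraries in the fit, the calls were 2 higher and 1 lower at 7 DPA, 5 higher and 1 lower at 14 DPA, 5 higher and 0 lower at 21 DPA, and 0 at 28 DPA (limma; 19 at an unadjusted p of at most 0.05). Single libraries also moved these counts and their balance. At 7 DPA 5 members were called without RD57 replicate 2 or without RD6 replicate 1, and 4 without RD6 replicate 2, while without RD57 replicate 1 there were 12, 3 higher and 9 lower. At 14 DPA 11 were called without RD57 replicate 3, 6 higher and 5 lower, and 10 without RD6 replicate 1, 6 higher and 4 lower. Without RD6 replicate 2 the 14 DPA calls were 7 higher and 5 lower, and without RD6 replicate 3 they were 6 higher and 6 lower. At 21 DPA 9 were called without replicate 2 of either cultivar and 7 without RD57 replicate 3. At 28 DPA 3 were called without RD57 replicate 3 or RD6 replicate 1, all higher, 13 without RD6 replicate 3, and 0 without RD6 replicate 2 (limma; 14 at an unadjusted p of at most 0.05).

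Separation of the replicates of the cultivars was counted as well. All 3 RD57 libraries lay above all 3 RD6 libraries in 21, 15, 48 and 27 members at 7, 14, 21 and 28 DPA, where 18.2%, 19%, 20.3% and 16.1% of all genes did so. All 3 RD6 libraries lay above in 20, 32, 16 and 10 members, against 18.4%, 17%, 20% and 8.21% of all genes. At 21 DPA, 24% of members had RD57 above, close to the 23.8% of ranked genes. All 12 RD57 libraries were above all 12 RD6 libraries in 0 members (1.92% of all genes), and all 12 RD6 libraries were above all 12 RD57 libraries in 0 members (0.25% of all genes).

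The members with the widest cultivar difference over the mean of the 4 ages kept its direction at each age, which that choice favours. The SEs below do not allow for the choice. XLOC_032262 was the highest in RD57, by 0.30 log2 (SE 0.05) over the 4 ages. Its RD57 libraries had 44.3, 42.2 and 46.1 FPKM (7 DPA), 53.1, 59.2 and 51.6 (14 DPA), 53.1, 48.9 and 52.1 (21 DPA), and 52.6, 61.2 and 54.5 (28 DPA). Its RD6 libraries had 39.1, 35.5 and 40.8 FPKM (7 DPA), 40.2, 44.4 and 41.0 (14 DPA), 45.3, 42.6 and 37.1 (21 DPA), and 41.6, 44.1 and 47.3 (28 DPA). RD57 was above RD6 without overlap at all 4 ages, and cultivar held 56.7% of the sum of squares of XLOC_032262. The limma fit called its cultivar difference at 14, 21 and 28 DPA but not at 7 DPA. XLOC_033696 was higher in RD57 by 0.30 log2 (SE 0.07), with RD57 above RD6 without overlap at 7, 14 and 21 DPA. The cultivar difference of XLOC_033696 was called at no single age. At 28 DPA its RD57 libraries had 36.1, 33.2 and 25.1 FPKM and its RD6 libraries 23.1, 23.99 and 27.8 FPKM. Scaled to the common sum, both differences shrank to 0.03 log2.

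In the other direction, XLOC_004666 was lower in RD57 by 0.29 log2 (difference -0.29, SE 0.05). XLOC_004666 had 26.8, 30.6 and 30.0 FPKM (7 DPA), 24.6, 31.6 and 24.3 (14 DPA), 25.3, 23.6 and 25.9 (21 DPA), and 22.5, 25.2 and 27.0 (28 DPA) in RD57. In RD6 the values were 35.2, 33.5 and 34.8 FPKM (7 DPA), 35.1, 36.5 and 36.8 (14 DPA), 31.2, 31.6 and 28.6 (21 DPA), and 25.6, 28.6 and 31.3 (28 DPA). The cultivars did not overlap at 7, 14 and 21 DPA and did at 28 DPA. Of the single ages, only the 14 DPA difference of XLOC_004666 was called. XLOC_037019 differed by -0.28 log2 (SE 0.06), with RD57 below RD6 without overlap at 7 DPA and at 28 DPA. XLOC_037019 was called at 28 DPA and at no other single age. At 28 DPA it had 15.0, 13.3 and 9.88 FPKM in RD57, against 17.6, 18.5 and 15.2 FPKM in RD6. Scaled to the common sum, the difference of XLOC_004666 was -0.56 log2 and that of XLOC_037019 -0.54 log2.

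Along development the members had no common course. In RD57, 49, 47, 42 and 62 of 200 members were highest at 7, 14, 21 and 28 DPA, and 69, 49, 45 and 37 were lowest there. In RD6, 46, 74, 34 and 46 were highest and 50, 38, 76 and 36 lowest. Of the ranked genes, 27.2%, 28.7%, 12.7% and 31.4% were highest and 31.8%, 18.9%, 19.8% and 29.5% lowest at these ages in RD57. In RD6 27.6%, 30.8%, 13.5% and 28.2% of ranked genes were highest and 27.1%, 19.5%, 20.7% and 32.8% lowest. The age of the highest mean was the same in both cultivars for 83 members (41.5%), against 69.4% of ranked genes. Between 21 and 28 DPA on the one hand and 7 and 14 DPA on the other, the difference had the same sign in both cultivars in 121 members (60.5%; ranked genes 90.6%), 60 higher late and 61 lower late. Its median over members was 0.04 log2 in RD57 and -0.05 log2 in RD6. Members were chosen for little change over these libraries, so nothing is read from an agreement below that of the ranked genes.

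Step by step, the changes of the members were loosely alike in the 2 cultivars. Across the 200 members, the log2 change in RD57 correlated with that in RD6 at r = 0.36 (Pearson) and rho = 0.36 (Spearman) for 14 over 7 DPA. The values were r = 0.26 and rho = 0.26 for 21 over 14 DPA, and r = 0.31 and rho = 0.30 for 28 over 21 DPA. Across the 8206 ranked genes r was 0.79, 0.88 and 0.76 for the same steps. These are correlations across genes of shared libraries, and genes are not independent replicates. The part of the replicate spread in these values was not tested. Because members were chosen for small changes, their lower correlations are not read as a difference between the cultivars.

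In the limma fit 24 members were called for 14 over 7 DPA in RD57, 17 higher and 7 lower at the later age, against 43.6% of all genes (23.4% higher, 20.2% lower) and 44.9% of ranked genes. For 21 over 14 DPA in RD57 there were 25, 13 higher and 12 lower, against 63.1% of all genes (27.7% higher, 35.3% lower) and 71.3% of ranked genes. For 28 over 21 DPA in RD57 there were 6, 5 higher and 1 lower, against 16.2% of all genes (4.89% higher, 11.3% lower) and 10.9% of ranked genes. RD6 had 27 calls for 14 over 7 DPA, 22 higher and 5 lower, against 41.8% of all genes (21.4% higher, 20.5% lower) and 42.5% of ranked genes. RD6 had 52 calls for 21 over 14 DPA, 12 higher and 40 lower, against 56.8% of all genes (25.4% higher, 31.3% lower) and 66.1% of ranked genes. RD6 had 11 calls for 28 over 21 DPA, 9 higher and 2 lower, against 32.1% of all genes (9.19% higher, 22.9% lower) and 27.9% of ranked genes. The RD6 step to 21 DPA had the lowest median of the 6, -0.10 log2, with 67 of 200 members higher. Over the ranked genes this step also had the lowest median of the 6, -0.22 log2, with 3480 of 8206 higher. For 21 and 28 DPA together over 7 and 14 DPA, 69 members were called, 31 higher and 38 lower, against 86.8% of all genes (35.7% higher, 51.1% lower) and 86.3% of ranked genes.

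In total 107 members were called in at least 1 of 4 cultivar and 6 step comparisons (94.9% of all genes) and 93 in none. Any cultivar comparison called 38 members (59.1% of all genes) and any step 95 (93.3% of all genes), and the largest of those 10 differences was under 0.5 log2 in 181 members and under 1 log2 in all 200. Leaving out single libraries moved 4 of the 6 step counts by over 1.5 times. For 14 over 7 DPA, 14 members were called in RD57 without its 14 DPA replicate 2, and in RD6 16 without its 7 DPA replicate 2 and 17 without its 14 DPA replicate 2. For 28 over 21 DPA in RD57, 3 were called without replicate 1 at 21 DPA or replicate 2 or 3 at 28 DPA, and 10 without replicate 1 at 28 DPA. For the same step in RD6, 5 and 6 were called without replicates 2 and 3 at 21 DPA, and 4 without replicate 2 at 28 DPA, and without replicate 1 at 28 DPA the calls were 5 higher and 5 lower. A difference between cultivars in the step itself (RD57 minus RD6) was called in 6 members for 7 to 14 DPA, 1 higher and 5 lower, against 22.4% of all genes (12.2% higher, 10.2% lower) and 7.42% of ranked genes. It was called in 21 members for 14 to 21 DPA, 16 higher and 5 lower, against 28.4% of all genes (12.2% higher, 16.1% lower) and 13.4% of ranked genes. It was called in 1 member for 21 to 28 DPA, which was lower, against 17.1% of all genes (12.6% higher, 4.52% lower) and 2.85% of ranked genes.

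The direction of the step to 14 DPA in both cultivars and of the step to 21 DPA in RD6 turned with the scale, the even split of the step to 21 DPA in RD57 became mostly higher, and the calls for 28 over 21 DPA were mostly higher on each scale. Under quantile normalization the calls in RD57 were 2 higher and 39 lower for 14 over 7 DPA, 81 higher and 1 lower for 21 over 14 DPA, and 6 higher and 0 lower for 28 over 21 DPA. In RD6 they were 3 higher and 27 lower, 54 higher and 10 lower, and 36 higher and 0 lower for the same steps, and for the later over the earlier pair of ages 115 higher and 3 lower. With libraries scaled to the common sum, RD57 had 0 higher and 167 lower, 199 higher and 0 lower, and 64 higher and 0 lower for the 3 steps, RD6 had 0 higher and 100 lower, 100 higher and 0 lower, and 131 higher and 0 lower, and all 200 members were called higher at 21 and 28 DPA. With median ratio scaling the step to 21 DPA in RD6 had 15 higher and 30 lower, and the later over the earlier ages 38 higher and 33 lower. The near-even split of the later over the earlier ages also turned without single libraries, to 39 higher and 35 lower without RD57 at 7 DPA, replicate 1, and to 35 higher and 33 lower without RD57 at 14 DPA, replicate 2.

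XLOC_008721 and XLOC_013501 were the members highest at the later ages relative to the earlier ones. They were picked by that difference, so the separation of their ages is a description. XLOC_008721 was higher at 21 and 28 DPA than at 7 and 14 DPA by 0.35 log2 (SE 0.06). It had 23.5, 21.6 and 24.7 FPKM (7 DPA), 27.0, 28.1 and 26.2 (14 DPA), 30.8, 35.1 and 29.3 (21 DPA), and 33.6, 31.9 and 36.5 (28 DPA) in RD57. In RD6, XLOC_008721 had 27.7, 28.1 and 25.5 FPKM (7 DPA), 28.8, 21.9 and 23.4 (14 DPA), 32.8, 33.2 and 29.2 (21 DPA), and 36.8, 29.8 and 32.004 (28 DPA). Every later library was above every earlier library of the same cultivar. XLOC_013501 was higher late by 0.32 log2 (SE 0.05), with 49.7, 51.8 and 44.5 FPKM (21 DPA) against 36.8, 39.2 and 35.3 FPKM (14 DPA) in RD57. The RD6 libraries of XLOC_013501 had 47.5, 47.2 and 40.8 FPKM (21 DPA) against 34.4, 35.3 and 39.6 FPKM (14 DPA). In both cultivars the 21 DPA libraries lay above the 14 DPA libraries. The late over early differences of XLOC_008721 and XLOC_013501 were 0.55 and 0.59 log2 with quantile normalization, and 0.95 and 0.92 log2 with libraries scaled to the common sum.

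On the FPKM scale XLOC_040335 and XLOC_025143 were the lowest at the later ages, but their differences of -0.33 log2 (SE 0.06) and -0.31 log2 (SE 0.06) became 0.27 and 0.28 log2 with libraries scaled to the common sum. With quantile normalization that of XLOC_040335 was -0.08 log2 and no longer called. XLOC_040335 had 33.7, 36.1 and 33.9 FPKM (21 DPA) against 34.9, 49.0 and 42.3 FPKM (14 DPA) in RD57, and 30.5, 31.0 and 31.7 FPKM (21 DPA) against 48.1, 43.6 and 39.9 FPKM (14 DPA) in RD6. The 2 ages were apart in both cultivars except that 1 RD57 library at 14 DPA lay among those at 21 DPA. XLOC_025143 had 9.53, 11.2 and 11.2 FPKM (21 DPA) against 11.5, 15.4 and 12.9 FPKM (14 DPA) in RD57, and 11.6, 9.37 and 11.8 FPKM (21 DPA) against 14.0, 15.9 and 15.8 FPKM (14 DPA) in RD6, with no overlap between these ages in either cultivar.

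Finally, the rule was applied to the 12 libraries of 1 cultivar and the genes it chose were read in the other cultivar, whose libraries it had not used. Of 200 genes chosen in RD57, 195 could be ranked in RD6, and their median SD there was 0.234 against 0.574 over the 7708 genes ranked in both. In RD6, 132 of the 195 (67.7%) were in the lowest 10% of SD and 2 in the upper 50%. Of 200 chosen in RD6, 195 could be ranked in RD57 as well, with a median SD of 0.240 against 0.609, 126 (64.6%) in the lowest 10% and 4 in the upper 50%. The members themselves were about as steady in either cultivar, with a median SD of 0.184 over RD57 libraries and 0.186 over RD6 libraries, and 101 of them were wider in RD57 and 99 in RD6. The libraries of the cultivar that was read had no part in ranking the genes, but did decide which of them could be read. These 2 lists are not the member list. Of the 200 genes chosen in RD57, 118 were members, and of those chosen in RD6, 101 were. However, the 2 cultivars were grown together and normalized together, so the readout is not independent of the normalization. It was made on the deposited FPKM scale only.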

How the data were processed

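RNA-seq of 24 grain libraries of RD57 and RD6 was analysed (8 groups, 3 biological replicates). Per the study's methods and the submitters' notes, the authors trimmed reads, removed rRNA, aligned to an indica genome with HISAT2, assembled with Cufflinks and normalized with Cuffnorm. The authors deposited FPKM per gene: values under 0.5 FPKM were dropped, detection in 2 or more replicates was required, and gaps took the average of the remaining replicates. In the table the smallest value above 0 was 0.50 FPKM. Of the 1600 member groups, 0 held such a filled value (relative tolerance 1e-06). Versions of the upstream tools are not given in the sources used here, and the kit was stranded, but how overlapping and near-identical genes were separated was not checked.

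FPKM are not counts, so the authors' count model was not used. Values were taken as log2(FPKM + 0.5) of the deposited FPKM, and limma 3.58.1 (R 4.3.3) fitted 8 group means with a trended prior to all 26362 genes, with Benjamini-Hochberg adjusted p of at most 0.05 as the call; differences are on that log2(FPKM + 0.5) scale, which understates changes of low genes. Members, sums of squares and figures were computed in Python (3.11.15) using pandas (2.3.3) plus matplotlib (3.10.9). The fit was also run on simulated data with independent normal spread and a change in a single group. No outcome of that run is reported here or used as support.

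Named genes are the 3 lowest SDs, ranks 200 and 201, the highest and lowest mean, the 2 extremes in each direction of the cultivar and the late over early difference, the smallest range of group means, and the extremes of the replicate share. The members and lists were chosen with earlier results of these data known. Alternatives were other pseudocounts, level limits, rankings, scalings, subsets of libraries, the replicate number as a block and each library left out; scaling to a common sum of 1000000 for the call counts was added after seeing the data.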

Additional observations from a re-analysis of the deposited data

Results flagged for a closer look

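For XLOC_014784, the least abundant member, the limma fit called a difference between the cultivars in 2 steps, which share the 14 DPA libraries. For 7 to 14 DPA the step was -0.46 log2 (SE 0.16) in RD57 relative to RD6, and for 14 to 21 DPA it was 0.52 log2 (SE 0.16). The RD57 means were 10.2 ± 0.261, 10.5 ± 0.369, 10.5 ± 0.964 and 10.2 ± 0.318 FPKM at 7, 14, 21 and 28 DPA (SD, n = 3). The RD6 means were 8.99 ± 0.947, 12.8 ± 0.915, 8.78 ± 1.16 and 9.67 ± 0.520 FPKM. At single ages no cultivar difference of XLOC_014784 was called (limma, adjusted p 0.29, 0.066, 0.11 and 0.94 at 7, 14, 21 and 28 DPA). The gene was chosen for a low SD over the same libraries, so these values are a description. Only the named members were searched for such a change. Among all 200 members, 6 were called for 7 to 14 DPA (22.4% of all genes) and 21 for 14 to 21 DPA (28.4% of all genes). Values of these 2 differences on other scales are not given. Groups of 3 were too small for a test of a single library against the rest of its group.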

How the results depend on the processing

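The list kept 194 and 195 of 200 members with a pseudocount of 0.1 and 1, 155 with a mean of at least 1 FPKM, 200 with no upper limit, 190 with median ratio scaling, 182 by the coefficient of variation and 145 by the SD of the 8 group means. It kept fewer with a mean of at least 20 FPKM (126), with quantile normalization (96), without the 28 DPA libraries (124), from RD57 alone (118), from RD6 alone (101) and with libraries scaled to a common sum (1). Leaving out 1 library kept 174 to 195. With quantile normalization, members called were 13 for RD57 over RD6 at 28 DPA, 41 and 82 for 14 over 7 and 21 over 14 DPA in RD57, 36 for 28 over 21 DPA in RD6 and 118 for the later over the earlier ages. With only genes above 0 in all 24 libraries, the cultivar comparisons called 3, 6, 5 and 0 members at 7, 14, 21 and 28 DPA by limma. At 28 DPA, 19 members had an unadjusted p of at most 0.05 in that limma fit, against 26 in the main fit. The steps 14 over 7 and 28 over 21 DPA called 15 and 2 in RD57 and 17 and 6 in RD6 with the same genes. Why fewer members were called was not tested. With libraries scaled to the common sum, the cultivar comparisons called 60, 138 and 4 members at 7, 14 and 21 DPA and 136 over the 4 ages, the steps 167, 199 and 64 in RD57 and 100, 100 and 131 in RD6, and the later over the earlier ages 200. Beyond the altered scale itself, the cause was not tested. There the late over early difference also turned to 0.27 for XLOC_040335 and 0.28 for XLOC_025143. A pseudocount of 0.1 and median ratio scaling moved no total of calls by over 1.5 times, although median ratio scaling moved the calls higher in RD57 to 8 at 21 DPA and 1 at 28 DPA. Leaving out 1 library gave 4 to 12, 10 to 23, 7 to 17 and 0 to 13 members for the cultivar comparisons at 7, 14, 21 and 28 DPA and 29 to 35 over the 4 ages. It gave 14 to 26, 17 to 29 and 3 to 10 for the RD57 steps, 16 to 31, 35 to 55 and 4 to 14 for the RD6 steps, and 61 to 74 for the later over the earlier ages. Same-numbered replicates of different groups correlated at a median r of 0.00 in their deviations from the group means (-0.34 to 0.39 over 84 pairs, across 15212 genes) and others at -0.01. The numbers thus showed no pairing common to all groups, and a pairing limited to some groups was not tested. With the replicate block, 10, 17, 14 and 6 members were called at the 4 ages and 67 for the later over the earlier ages, and no total moved by over 1.5 times. The mapped read pairs the study lists per library were not used here, so no limit from depth is given.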
